A study of Homo sapiens with 6 samples.

Results

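The genes described here are 9 genes of the epithelial tight junction, namely the claudins CLDN1, CLDN4, CLDN7 and CLDN12, the membrane proteins OCLN, MARVELD2 and F11R, and the cytoplasmic scaffolds TJP1 and TJP3. They were picked by gene symbol from the 58676 genes of the table, by a rule that names no values. The choice was made with earlier results of these data known. All 9 had a mean level high enough to be tested. In BCL9 KD cells the mean CLDN1 level rose by 39.1% and the mean OCLN level fell by 38.2%. The mean of CLDN4 was 25.3% higher in BCL9 KD and that of TJP1 dropped by 22.6%, differences that did not pass the adjusted test, and CLDN7 and TJP3 had overlapping values in both groups.

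RNA sequencing compared 3 samples of NS control with 3 samples of BCL9 KD in DCIS.COM, a human breast cancer cell line used as a model of basal-like ductal carcinoma in situ. BCL9 is a transcriptional co-activator best known as a partner of β-catenin in Wnt signalling, and the study asked what its loss does in these cells. The NS control samples were DCIS.COM cells carrying the PLKO.1 non-silencing vector, and the BCL9 KD samples carried a PLKO.1 vector with a BCL9 shRNA. Both groups were transduced with lentivirus, grown with puromycin, and harvested from 3 flasks each, 1 flask per replicate. The methods name a single BCL9 shRNA and no cloning step, and the p-values describe the spread between flasks of the same transduced lines. Samples are named below by group and replicate number.

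Tight junctions seal the space between neighbouring epithelial cells near their apical side. Claudins are small proteins with 4 passes through the membrane that build the strands of the junction and set which ions and solutes can pass, so that the mix of claudins in a cell decides how tight the barrier is. Occludin (OCLN) and tricellulin (MARVELD2) are relatives that share the MARVEL membrane domain, and junctional adhesion molecule A (F11R) is an immunoglobulin-like adhesion protein. The zonula occludens proteins, among them ZO-1 (TJP1) and ZO-3 (TJP3), bind the tails of these membrane proteins and tie them to actin. In carcinomas, claudin and occludin genes are known targets of the repressors of the SNAI and ZEB families, which bind a DNA motif called the E-box.

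Sequence in front of the start sites of the genes is shown first, because the E-box and the TCF/LEF motif, through which β-catenin acts, are short strings that can be looked up in it. RefSeq windows of 250 bases before each start (GRCh38.p14) were at hand for 8 of the 9 genes, in 14 windows, and F11R had no entry. The letters searched, on both strands, were CAGGTG for the E-box and TTCNNNGAA for STAT. For TCF/LEF the search took CTTTGTT as well as the variant CTTTGTA, the variant CTTTGAA and the variant CTTTGAT. Of 35116 windows of the same length, 17.5% held this E-box, 6.57% the STAT letters and 12% a TCF/LEF string. The window of CLDN1, the claudin with the largest difference of the 4, lies on the minus strand at chr3:190322447-190322696 and holds none of these strings. Its last 29 bases lie inside the gene as the deposited table draws it. For CLDN4 the 30 bases around its single TCF/LEF string are given (chr7:73830859-73830888, plus strand), whose first base is 125 bases before the start. For OCLN the 30 bases around the E-box nearest the start are given (chr5:69492502-69492531, plus strand), which begins 33 bases before it. Both of these stretches lie wholly inside the genes as the deposited table draws them, since its models begin further upstream than the RefSeq starts. Capitals mark the matched string.
CLDN1: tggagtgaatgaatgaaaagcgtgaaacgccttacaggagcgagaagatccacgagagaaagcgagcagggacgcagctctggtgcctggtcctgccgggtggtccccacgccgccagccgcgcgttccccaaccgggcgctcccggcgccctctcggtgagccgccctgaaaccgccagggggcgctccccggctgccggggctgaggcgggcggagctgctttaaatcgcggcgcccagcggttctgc
CLDN4: cctcaaaagtgcCTTTGTTggcctgggctc
OCLN: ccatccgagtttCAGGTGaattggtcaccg

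The other windows held the following. Each of the 2 windows of OCLN held 1 E-box, 1 of the 2 windows of CLDN7 held 4, and TJP1 and TJP3 each had 1 window with 1 E-box. CLDN12 had 1 STAT string, and MARVELD2 had none of the strings searched. A match is a description of the letters and says nothing of binding in these cells.

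Depth and the knockdown were checked before the genes were compared. Reads assigned to genes ranged from 15222452 to 26949026 per sample. Samples of different groups correlated about as well as replicates (0.9584 to 0.9740 against 0.9641 to 0.9870). NS control replicate 1 stood apart, since NS control replicate 3 correlated less with it (0.9641) than with the 3 BCL9 KD samples (0.9703 to 0.9740). Without NS control replicate 1 the log2 fold change was 0.43 for CLDN1 (adjusted p = 0.031) and −0.66 for OCLN (adjusted p = 0.0241). BCL9 (ENSG00000116128, chr1:147541412-147626216) was at 6.25, 6.24 and 5.34 FPKM in NS control and at 2.86, 2.78 and 2.59 FPKM in BCL9 KD without overlap, and its mean fell by 53.9%. FPKM is the number of fragments per kilobase of gene length, scaled to the reads counted in the sample. Comparisons between genes depend on the gene lengths deposited with the values. Markers of basal mammary epithelium fitted the labelled line, with 5 of 5 genes present and a summed level of 983 to 1151 FPKM in NS control and 1018 to 1070 FPKM in BCL9 KD. The general epithelial markers EPCAM, CDH1, KRT8 and KRT18 summed to 577 to 688 FPKM in NS control and 530 to 560 FPKM in BCL9 KD. Of the luminal markers 2 of 4 were present, and they summed to 10.7 to 12.3 FPKM and 10.4 to 11.5 FPKM, with PGR at 0 in every sample. Fibroblast markers summed to 0.542 to 0.609 FPKM and 0.634 to 0.743 FPKM, with COL3A1 at 0 throughout. Of the endothelial markers, PECAM1 alone was present, at 1.72 to 2.29 FPKM in NS control and 3.11 to 3.91 FPKM in BCL9 KD, while CDH5 stayed at or below 0.0534 FPKM, and the list summed to 1.8 to 2.42 FPKM and 3.22 to 4.06 FPKM. Of the leukocyte markers, CD14 alone was present, at 0.288 to 0.56 FPKM and 0.778 to 1.38 FPKM, with PTPRC at or below 0.0059 FPKM, and the list summed to 0.294 to 0.56 FPKM and 0.778 to 1.38 FPKM. In bulk RNA, fewer cells that use a gene and less RNA per cell cannot be told apart, which holds for every value below.

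All fold changes below are differences in log2(FPKM + 0.5), BCL9 KD minus NS control, tested with limma over 13745 genes with a mean of at least 0.5 FPKM. The adjusted p-value is the Benjamini-Hochberg value over all of these genes, and a gene was called at a value under 0.05. In this comparison 5.87% of tested genes were called, 2.96% as higher and 2.91% as lower in BCL9 KD, and 34.2% had no overlap between the 3 values of each group. Among the 9 tight junction genes, 1 was called higher (CLDN1), 1 was called lower (OCLN) and 7 were not called. The groups did not overlap for 7 of the 9, or 77.8%, with CLDN1, CLDN4 and CLDN12 higher and OCLN, TJP1, MARVELD2 and F11R lower in BCL9 KD. The median log2 fold change of the 9 was −0.09, beside 0.04 over all genes tested. The count of called genes over all genes tested was 807. It became 12 without NS control replicate 2, 13 without BCL9 KD replicate 2 and 5 without BCL9 KD replicate 3. An exact permutation test of a single gene with 3 against 3 samples cannot give a two-sided p below 0.1. Groups without overlap always give that value, so for the 7 genes without overlap and BCL9 it only restates the lack of overlap.

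**Figure D1:**
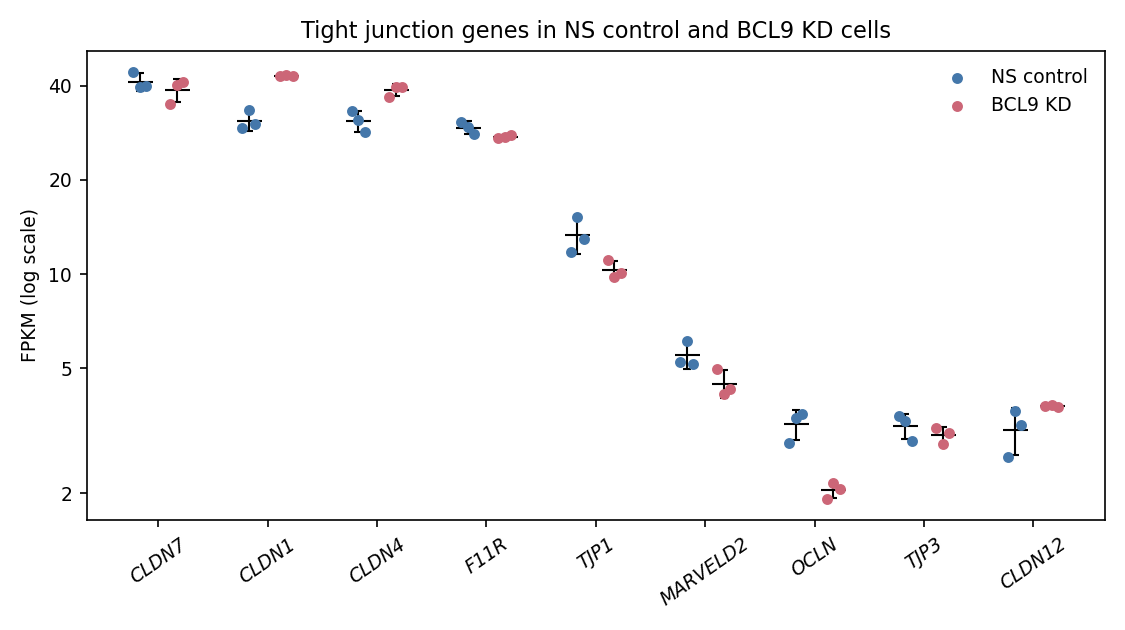
Level of each gene in every sample, as FPKM on a log axis, with NS control in blue and BCL9 KD in red, ordered by the NS control mean. Points are samples, and the black bars give the mean and SD of 3 samples. The BCL9 KD points of CLDN1 sit near 43.0 FPKM above all NS control points, and those of OCLN between 1.92 and 2.16 FPKM below all of them.

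CLDN1 (claudin-1, ENSG00000163347, chr3:190305701-190322475, GRCh38) is a barrier-forming claudin that epithelia of skin and breast use. Its level was 29.2, 33.5 and 30.1 FPKM in NS control and 42.9, 43.2 and 43.0 FPKM in BCL9 KD. Every BCL9 KD sample was above every NS control sample, and the 3 BCL9 KD values were closer to each other than the NS control values were. The mean rose from 30.9 ± 2.31 to 43.0 ± 0.189 FPKM (SD, n = 3 each), a log2 fold change of 0.47 (SE 0.073, 95% interval 0.30 to 0.65, adjusted p = 0.0236). Between 1678 and 4269 reads per sample stood behind these values. The call was lost without NS control replicate 2 (adjusted p = 0.0796), without BCL9 KD replicate 2 (adjusted p = 0.14) and without BCL9 KD replicate 3 (adjusted p = 0.14), with a log2 fold change of 0.43 to 0.53 over the 6 fits that left out a sample. Other fits that lost it were no filter (adjusted p = 0.0575), the replicate block (adjusted p = 0.0876) and the GC correction with replicate block (adjusted p = 0.0592).

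CLDN4 (claudin-4, ENSG00000189143, chr7:73799542-73832693) is a barrier-forming claudin of many glandular epithelia and the receptor of a Clostridium enterotoxin. It was at 33.1, 31.1 and 28.4 FPKM in NS control and at 36.7, 39.6 and 39.7 FPKM in BCL9 KD, again with no overlap. The means were 30.9 ± 2.37 and 38.7 ± 1.7 FPKM (SD, n = 3 each). The log2 fold change of 0.32 (SE 0.0796, 95% interval 0.13 to 0.51) had a adjusted p of 0.0603 and was not called. Of 18 alternative fits 5 called it, with adjusted p-values from 0.0124 to 0.235. Without NS control replicate 1 the adjusted p was 0.0468, and without NS control replicate 2, BCL9 KD replicate 2 or BCL9 KD replicate 3 it was 0.183, 0.228 and 0.235. With median-of-ratios scaling it was 0.147. With a correction for the GC content of transcripts, which is 56.2% for CLDN4, the log2 fold change was 0.44 and the adjusted p 0.0124. On reads recovered from the FPKM and fitted with voom, the adjusted p was 0.0475.

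CLDN7 (claudin-7, ENSG00000181885, chr17:7259903-7263983) is known to sit also along the lateral membrane, where it binds the adhesion protein EpCAM. Its level was 44.2, 39.5 and 39.9 FPKM in NS control and 34.9, 40.1 and 41.1 FPKM in BCL9 KD. The groups overlapped, since 2 of the 3 BCL9 KD values lay within the range of NS control. The log2 fold change of −0.09 had a 95% interval from −0.30 to 0.12 (adjusted p = 0.526), and it was 0.03 with the GC correction, −0.04 without NS control replicate 1 and −0.02 without BCL9 KD replicate 1. The gene shares its position with ELP5 on the opposite strand, which carried 277 to 578 reads per sample against 1512 to 2692 for CLDN7. Whether the counting used the strand is not given in the sources used here, so reads of both genes may not be told apart where they overlap.

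CLDN12 (claudin-12, ENSG00000157224, chr7:90383721-90513402) is an unusual claudin that lacks the tail motif with which most claudins bind ZO proteins. It was at 2.60, 3.66 and 3.31 FPKM in NS control and at 3.79, 3.82 and 3.77 FPKM in BCL9 KD. No values overlapped, but BCL9 KD replicate 3 was only slightly above NS control replicate 2. The log2 fold change of 0.23 had a 95% interval from −0.06 to 0.52 (adjusted p = 0.264). It was 0.11 without NS control replicate 1 and 0.10 with the GC correction. Its position overlaps CDK14 and GTPBP10 on the same strand, which carried 1009 to 1799 and 159 to 366 reads per sample, against 340 to 694 for CLDN12. How reads in shared exons were assigned is not given in the sources used here.

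The order of the claudins by FPKM differed between the groups. CLDN7 had the highest FPKM of the 9 genes in each of the 3 NS control samples, and CLDN1 had the highest in each of the 3 BCL9 KD samples. This order was noticed after the values were seen and is given as a description, with no test. It and the shares below depend on the deposited gene lengths, 3663 bases for CLDN1, 4702 for CLDN4 and 2492 for CLDN7. By reads not divided by length, CLDN4 was above CLDN1 and CLDN7 in all 6 samples. Of the summed FPKM of the 24 claudin genes in the table, which was 108 to 115 FPKM in NS control and 129 to 137 FPKM in BCL9 KD, these 4 claudins made up 91.5% to 95.1% in every sample. CLDN1 took 25.4%, 29.3% and 27.8% of the claudin sum in NS control and 33.1%, 31.9% and 31.4% in BCL9 KD. CLDN7 took 38.5%, 34.5% and 36.8% in NS control and 27.0%, 29.6% and 30% in BCL9 KD. Neither share overlapped between the groups. CLDN4 took 26.2% to 28.9% and 28.4% to 29.2%, ranges that overlapped, and CLDN12 never took more than 3.2%. Shares of a sum are tied to each other, so that the lower share of CLDN7 goes with higher levels of other claudins while its own FPKM overlapped between groups.

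**Figure D2:**
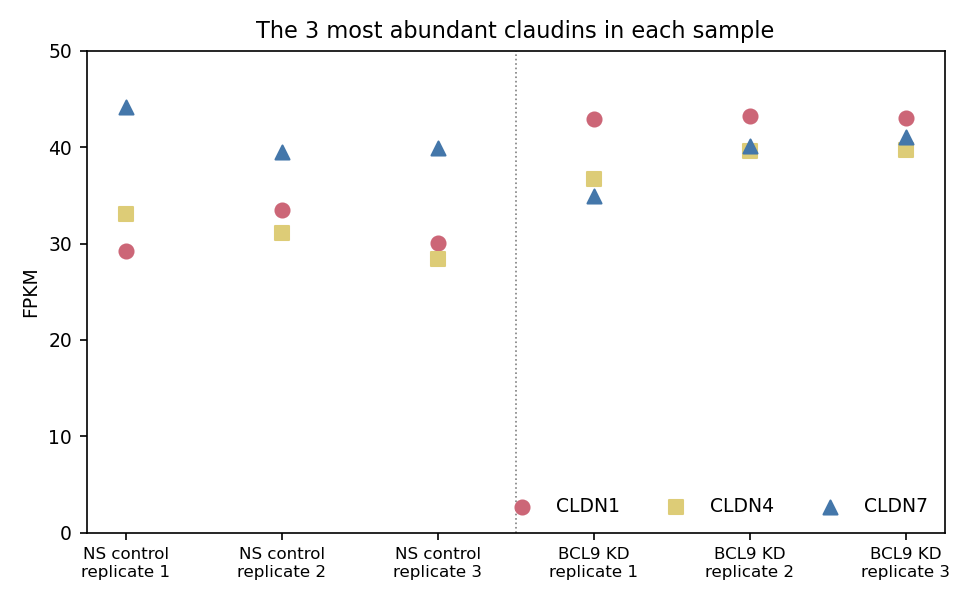
FPKM of CLDN1 (circles), CLDN4 (squares) and CLDN7 (triangles) in each of the 6 samples, with a dotted line between NS control and BCL9 KD. CLDN7 is uppermost in every NS control sample, at 39.5 to 44.2 FPKM, and CLDN1 in every BCL9 KD sample, at 42.9 to 43.2 FPKM.

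OCLN (occludin, ENSG00000197822, chr5:69492292-69558104) was the first membrane protein of the tight junction to be described, and it helps to regulate the barrier rather than to build its strands. It was at 2.90, 3.47 and 3.58 FPKM in NS control and at 1.92, 2.16 and 2.06 FPKM in BCL9 KD. The highest BCL9 KD value was below the lowest NS control value. The mean fell from 3.32 ± 0.36 to 2.05 ± 0.119 FPKM (SD, n = 3 each), a log2 fold change of −0.58 (SE 0.106, 95% interval −0.83 to −0.33, adjusted p = 0.034), which was the largest absolute log2 fold change among the 9 genes. Between 218 and 474 reads per sample stood behind these values.

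The OCLN call was kept in 2 of the 6 fits that left out a sample. It was lost without NS control replicate 2 (adjusted p = 0.146), BCL9 KD replicate 1 (adjusted p = 0.0636), BCL9 KD replicate 2 (adjusted p = 0.149) or BCL9 KD replicate 3 (adjusted p = 0.16), while the log2 fold change stayed between −0.66 and −0.53 in the 6 fits that left out a sample. Most calls over all genes were lost as well without NS control replicate 2, BCL9 KD replicate 2 or BCL9 KD replicate 3. The OCLN log2 fold change was −0.71 (adjusted p = 0.0109) with the GC correction and −0.67 (adjusted p = 0.0163) with voom on the recovered reads.

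MARVELD2 (tricellulin, ENSG00000152939, chr5:69415112-69444330) gathers at the corners where several cells meet, and its gene lies close to OCLN on the same strand. Its level was 5.26, 6.13 and 5.16 FPKM in NS control and 4.99, 4.14 and 4.29 FPKM in BCL9 KD. The groups did not overlap, though BCL9 KD replicate 1 came near NS control replicate 3. The log2 fold change was −0.27 (SE 0.104, 95% interval −0.52 to −0.03), with an unadjusted p of 0.0342 and a adjusted p of 0.147. Within a sample, the log2 ratio of OCLN to MARVELD2, each with 0.5 FPKM added, was −0.66 ± 0.16 in NS control and −0.96 ± 0.19 in BCL9 KD, a difference of −0.30. The difference was −0.25 with 1 FPKM added, −0.37 with 0.1 FPKM added and −0.20 without BCL9 KD replicate 1. The groups did not overlap in this ratio (exact permutation test, p = 0.1, the smallest possible, and 0.15 after adjustment over the 3 ratios computed here).

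F11R (JAM-A, ENSG00000158769, chr1:160995211-161021348) takes part in the first contacts from which junctions form and recruits polarity proteins. It was at 30.7, 29.5 and 28 FPKM in NS control and at 27.2, 27.4 and 27.9 FPKM in BCL9 KD. The values came close but did not overlap, and the means of 29.4 ± 1.36 and 27.5 ± 0.364 FPKM (SD, n = 3 each) lay close to each other. Its log2 fold change of −0.09 (SE 0.0647, 95% interval −0.25 to 0.06) was not called (adjusted p = 0.377), on 2159 to 3739 reads per sample. With the GC correction it was −0.00374. The SE of F11R was the smallest of the 9 genes, and the interval leaves out a fall as large as that of OCLN.

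TJP1 (ZO-1, ENSG00000104067, chr15:29699367-29968865) is the founding ZO scaffold, which binds claudins, occludin and JAM-A and links them to actin. Its level was 11.8, 15.2 and 13.0 FPKM in NS control and 11.1, 9.83 and 10.1 FPKM in BCL9 KD, without overlap. The means were 13.4 ± 1.74 and 10.3 ± 0.651 FPKM (SD, n = 3 each). The log2 fold change of −0.35 (SE 0.106, 95% interval −0.60 to −0.10) had an unadjusted p of 0.0134 and a adjusted p of 0.0938. With the GC correction it was −0.44 and called (adjusted p = 0.0347). Leaving out NS control replicate 2, the highest sample, gave −0.25 (adjusted p = 0.246).

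TJP3 (ZO-3, ENSG00000105289, chr19:3708109-3750813) is a ZO scaffold found mainly in epithelia. It was at 3.52, 3.39 and 2.93 FPKM in NS control and at 3.23, 2.86 and 3.12 FPKM in BCL9 KD, with overlap. Its log2 fold change of −0.08 had a 95% interval from −0.31 to 0.16 (adjusted p = 0.625) and was 0.02 with the GC correction. Over all 18 alternative fits of TJP3 it ranged from −0.15 to 0.02. The log2 ratio of TJP1 to TJP3 was 1.87 ± 0.22 in NS control and 1.60 ± 0.04 in BCL9 KD, and it overlapped between groups (exact permutation test, p = 0.3, and 0.3 after adjustment). For CLDN1 to CLDN4 the log2 ratio was 0.00 ± 0.16 in NS control and 0.15 ± 0.06 in BCL9 KD (exact permutation test, p = 0.1, and 0.15 after adjustment). Its difference of 0.15 was 0.06 without NS control replicate 1.

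Across the 9 genes, the FPKM values fell into a high group and a low group that held in all 6 samples. Their order also depends on the deposited gene lengths. CLDN1, CLDN4, CLDN7 and F11R took the first 4 places in every sample, TJP1 always came next and MARVELD2 after it. Within the high group, CLDN1, CLDN4 and F11R had overlapping values in NS control, so their order there does not hold beyond the spread. In the low group, OCLN was ahead of CLDN12 in NS control replicate 1, of TJP3 in replicate 2 and of both in replicate 3, and it was last in all 3 BCL9 KD samples.

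Voom on the recovered reads called 10.2% of tested genes and 3 of the 9 tight junction genes, which were CLDN1, CLDN4 and OCLN. The GC correction called 10.4% of tested genes and 4 of the 9, which were CLDN1 (log2 fold change 0.40), CLDN4, OCLN and TJP1. It also moved the split of calls over all genes from 407 higher and 400 lower to 909 higher and 520 lower, so that 63.6% rather than 50.4% of calls were higher in BCL9 KD.

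**Figure D3:**
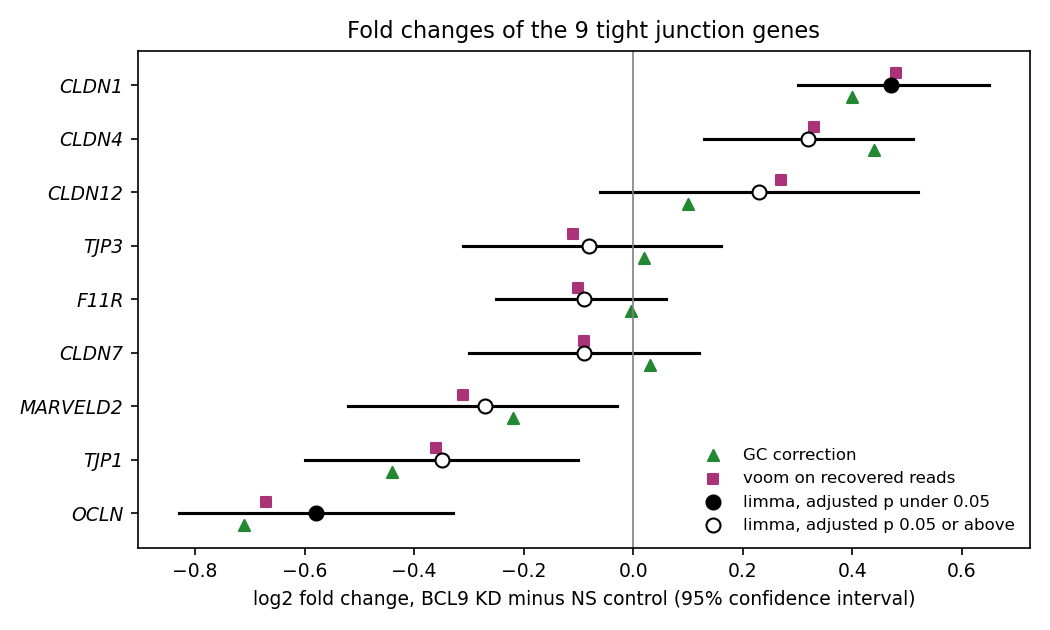
Log2 fold change of each gene, BCL9 KD minus NS control. Circles give the limma value with its 95% interval and are filled where the adjusted p is under 0.05, squares give voom on recovered reads and triangles the GC correction. CLDN1 and OCLN are filled and lie on opposite sides of 0, and TJP3 and CLDN7 lie near 0 and cross it with the GC correction.

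A wider list of 79 other genes of the junction was read from the same fit, of which 49 were tested. Of these, 1 was called higher and 4 lower, the groups did not overlap for 22 (44.9%), and the median log2 fold change was −0.11. The shares called among all genes, given above, and the 34.2% of all tested genes without overlap are the background for these counts and those below.

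Among 20 other claudin genes, 4 were tested and 1 was called. CLDN20, a little-studied claudin, was at 1.93, 2.33 and 2.06 FPKM in NS control and at 6.18, 4.73 and 4.70 FPKM in BCL9 KD, with a log2 fold change of 1.12 (adjusted p = 0.0117). All BCL9 KD samples were above all NS control samples. This gene lies across TFB1M on the opposite strand, which had a mean of 7.34 FPKM in NS control and 11.3 FPKM in BCL9 KD, and the part of TFB1M reads in the value of CLDN20 was not tested. Without NS control replicate 2, BCL9 KD replicate 2 or BCL9 KD replicate 3, the adjusted p of CLDN20 was 0.0636, 0.0617 and 0.0715. CLDN23 was at 0.832 to 0.939 FPKM and 1.41 to 1.45 FPKM, with a log2 fold change of 0.48 (adjusted p = 0.0558, and 0.0358 without the trend). CLDN15 had a log2 fold change of −0.10, which ranged from −0.22 without NS control replicate 1 to −0.00 with the GC correction. No claudin left untested exceeded 0.408 FPKM in any sample, CLDN3 among them.

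Of the other membrane proteins, 5 of 11 were tested and none was called. CLMP, an adhesion molecule related to JAM proteins, had a log2 fold change of 0.31 (adjusted p = 0.14). MARVELD3, the remaining relative of occludin, had −0.19 (adjusted p = 0.251), and BVES had −0.18. These values depended on the fit, since CLMP had 0.19 without NS control replicate 1, and with the GC correction MARVELD3 had −0.07 and BVES −0.27. The list's median was −0.11, and 3 of the 5 had no overlap, 1 higher and 2 lower, beside 34.2% without overlap over all genes tested.

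Of 8 other scaffolds, 5 were tested and 1 was called lower. CGN (cingulin), which binds ZO-1 and holds back the RhoA activator ARHGEF2, was at 2.19, 2.26 and 2.23 FPKM in NS control and at 1.49, 1.63 and 1.43 FPKM in BCL9 KD. Its log2 fold change was −0.44 (adjusted p = 0.0495), and with the GC correction it was −0.33 (adjusted p = 0.134). The call of CGN was lost in each of the 6 fits that left out a sample, from 0.0561 without NS control replicate 3 and 0.0592 without NS control replicate 1 to 0.089 without BCL9 KD replicate 1, 0.173 without NS control replicate 2, 0.179 without BCL9 KD replicate 2 and 0.208 without BCL9 KD replicate 3. MAGI1 and MAGI3 had log2 fold changes of −0.18 and −0.16 and were not called. Over 18 alternative fits they ranged from −0.26 to −0.10 and from −0.26 to −0.08, with the −0.10 of MAGI1 without NS control replicate 2 and the −0.08 of MAGI3 without NS control replicate 3.

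All 13 polarity genes were tested, 2 were called lower and none higher, with a median of −0.16. AMOTL2, an angiomotin that binds junction polarity proteins and YAP, was at 36.0, 33.9 and 30.9 FPKM in NS control and at 22.1, 22.3 and 22 FPKM in BCL9 KD (log2 fold change −0.59, adjusted p = 0.0152). Its relative AMOT was at 3.59, 4.09 and 3.37 FPKM and at 2.31, 2.24 and 2.02 FPKM (log2 fold change −0.64, adjusted p = 0.0274). Both are also known as regulators of the Hippo pathway, and both had groups without overlap. Leaving out NS control replicate 2, BCL9 KD replicate 2 or BCL9 KD replicate 3 gave adjusted p-values of 0.0904, 0.104 and 0.113 for AMOTL2 and of 0.12, 0.137 and 0.151 for AMOT. With no filter AMOT was not called (adjusted p = 0.0761) and AMOTL2 was (adjusted p = 0.0403), and the same held with the GC correction and replicate block (adjusted p = 0.0736 and 0.0459). PARD6A, a subunit of the PAR polarity complex, had a log2 fold change of −0.60 and was not called (adjusted p = 0.0623), though it was without NS control replicate 3 (adjusted p = 0.0412).

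Among 9 signalling genes and regulators, 7 were tested and MYLK was called lower. MYLK encodes the myosin light chain kinase, which contracts the actin ring beneath the junction and loosens it. It was at 11.2, 11.7 and 11.1 FPKM in NS control and at 7.98, 8.10 and 8.26 FPKM in BCL9 KD (log2 fold change −0.46, adjusted p = 0.0199). The adjusted p of MYLK was 0.11, 0.133 and 0.128 without NS control replicate 2, BCL9 KD replicate 2 and BCL9 KD replicate 3 in turn. USP53 had a log2 fold change of 0.61 that was not called (adjusted p = 0.263), with NS control values spread from 1.56 to 4.90 FPKM. For USP53 it was 0.24 without NS control replicate 1 and 0.93 without NS control replicate 3 (adjusted p = 0.0638). TJAP1 had 0.24.

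All 6 claudin partners and proteases were tested and none was called. EPCAM, which binds CLDN7, was at 98.2 to 107 FPKM in NS control and 99.8 to 114 FPKM in BCL9 KD. ST14 encodes matriptase, a protease that can cleave EpCAM, and had a log2 fold change of −0.11 (adjusted p = 0.402). For ST14 it was −0.04 without NS control replicate 1 and −0.01 with the GC correction, but −0.18 without NS control replicate 3 and −0.22 with quantile normalization. The matriptase inhibitors SPINT1 and SPINT2 had log2 fold changes of 0.29 (adjusted p = 0.091) and 0.26 (adjusted p = 0.162), with no overlap between groups in either, and each was called in some alternative fits. SPINT1 was called with the GC correction (log2 fold change 0.40, adjusted p = 0.0149) and with the GC correction and replicate block (adjusted p = 0.0472), and SPINT2 without BCL9 KD replicate 1 (adjusted p = 0.038).

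Of 12 transcription factors known to act on claudin or occludin genes, 9 were tested and none was called, with a median of 0.14. SNAI2, which encodes the E-box repressor Slug, was at 12.1, 13.1 and 13.2 FPKM in NS control and at 15.2, 17.5 and 16.0 FPKM in BCL9 KD (log2 fold change 0.33, adjusted p = 0.0566). Its groups did not overlap, and SNAI2 was called in 2 of 18 alternative fits, with the GC correction (log2 fold change 0.40, adjusted p = 0.0315) and with a minimum mean of 1 FPKM (adjusted p = 0.0497). KLF5, an epithelial activator, had a log2 fold change of 0.36 (adjusted p = 0.0501) and TWIST1 0.44 (adjusted p = 0.0884). KLF5 was called in 6 of 18 alternative fits, among them the GC correction (adjusted p = 0.0306), voom (adjusted p = 0.037) and the fit without NS control replicate 3 (adjusted p = 0.0461). SNAI1, ZEB1 and ZEB2 were below the minimum for testing.

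**Figure D4:**
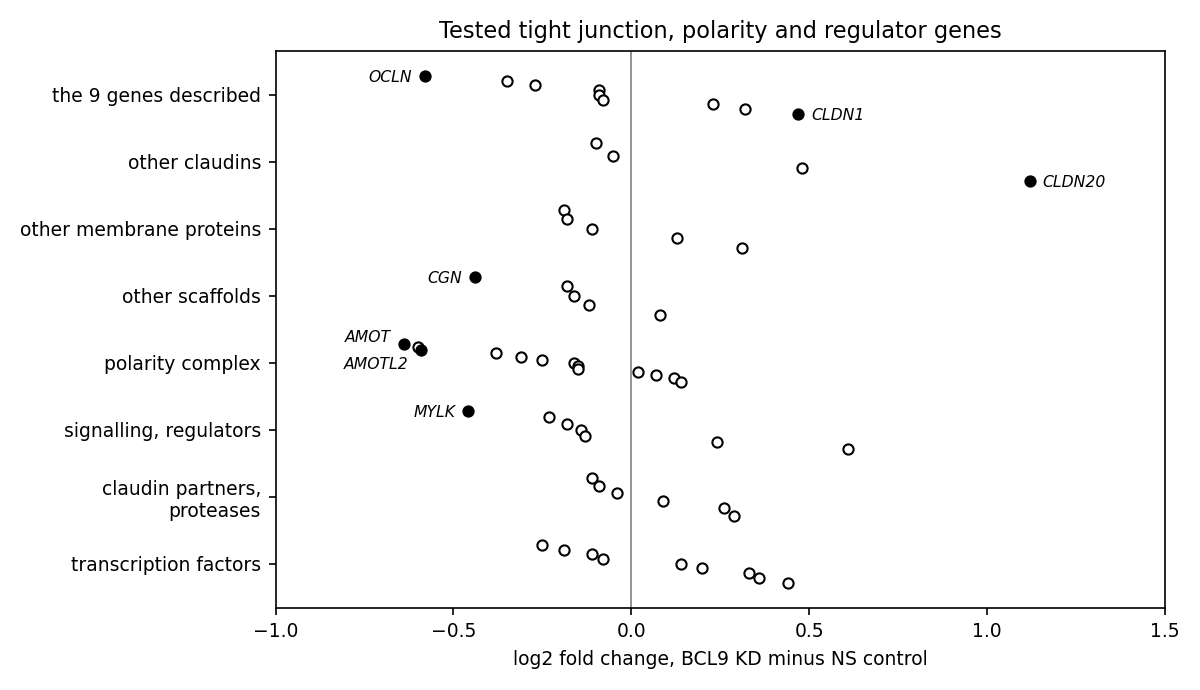
Log2 fold change, BCL9 KD minus NS control, of every tested gene of the 8 lists, each list in a row and its genes spread vertically for legibility. Filled points have an adjusted p under 0.05 and are named. CLDN1 and CLDN20 are the filled points above 0, and OCLN, CGN, AMOT, AMOTL2 and MYLK those below.

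The tested genes whose profile over the 6 samples was most like that of OCLN were ANKRD1, NANOS1 and UBE2G2. Likeness was the root mean square difference between log2 profiles centred on their means, which was 0.0397, 0.0406 and 0.0545 for these genes. Their log2 fold changes were −0.57, −0.59 and −0.57. ANKRD1 was at 10.7, 12.6 and 12.2 FPKM in NS control and at 7.69, 8.08 and 7.58 FPKM in BCL9 KD.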

How the data were processed

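RNA sequencing of 3 NS control and 3 BCL9 KD samples was analysed from the deposited FPKM table, grouped by the labels. To make these values the authors ran STAR on paired-end reads and HTSeq 0.6.1 for counts (the processing notes also name CASAVA and hg38), then divided each count by gene length and by all reads counted to give FPKM. The deposited table also gives, as other columns, gene positions and the gene length in bases. Gene positions fitted GRCh38 (100% of 18127 matched protein-coding genes overlapped). The authors tested differences with DESeq2, which takes counts. Their methods also name another count test and speak of a pair of biological replicates per condition, while the labels and the table hold 3 samples per group, all used here. Here the unit is FPKM, so limma with an empirical Bayes trend was run on log2(FPKM + 0.5) over 13745 genes with a mean of at least 0.5 FPKM, with Benjamini-Hochberg adjustment. The added value shrinks fold changes of low genes. A gene was called at an adjusted p-value under 0.05.

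FPKM times gene length gave whole multiples of 1 step per sample for 100% of values (tolerance 0.1), which gave reads per gene and depths of 15222452 to 22712638 (NS control) and 15665714 to 26949026 reads (BCL9 KD). Reads are not independent molecules, so depth covers counting error only. Pearson correlations between replicates were 0.9641 to 0.9870 and between groups 0.9584 to 0.9740. The GC correction fitted a loess curve (span 0.3) of each sample's log2 values against transcript GC content from GRCh37 transcripts, known for 98.8% of tested genes. Single genes and ratios were also compared by exact two-sided permutation tests. Tests ran in R 4.3.3 with limma 3.58.1, and in Python 3.11 with numpy 2.4.6, pandas 2.3.3 and scipy 1.17.1, and were tested on simulated data. Figures used matplotlib 3.10.9.

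The 9 genes and all gene lists were chosen with earlier results of these data known. Genes named beyond the 9 and BCL9 are, from each list, those called and otherwise the largest absolute changes up to 3, plus the 3 nearest profiles to the gene with the largest change. CLDN3, EPCAM, SNAI1, ZEB1 and ZEB2 fall outside this rule, were chosen after their values were seen and are named for their roles. Cell type markers and genes whose positions overlap those of named genes also fall outside it. PATJ and PALS1 were found under INADL and MPP5. Alternatives were the added value, the filter, the scaling, quantile normalization, no trend, robust fitting, a replicate block, voom, the GC correction, a stricter threshold and leaving out each sample.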

Additional observations from a re-analysis of the deposited data

How the results depend on the processing

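Over 18 alternative fits of the 9 genes, 140 values kept direction and call, 6 gained a call, 12 lost it and 4 changed sign, and the sign changes were CLDN7 (0.03) and TJP3 (0.02), each with the GC correction and with the GC correction with replicate block. The count of called genes was 807, and became 142 with no filter, 536 with median-of-ratios scaling, 332 without the trend, 1403 with voom, 1429 with the GC correction, 379 with the GC correction and replicate block, 43 at an adjusted p under 0.01 and 5 to 1729 when a sample was left out (12 without NS control replicate 2, 1729 without NS control replicate 3, 13 without BCL9 KD replicate 2 and 5 without BCL9 KD replicate 3). Of the 9 tight junction genes, 2 were called, and 0 with no filter, 4 with the GC correction, 0 at an adjusted p under 0.01 and 0 to 3 when a sample was left out. With a replicate block, limma called 0 genes and 0 of the 9, with 3235 genes at an unadjusted p under 0.05 (3775 without the block), and CLDN1 and OCLN had adjusted p-values of 0.0876 and 0.0928. With the GC correction and block, CLDN4 (adjusted p = 0.0456) and OCLN (adjusted p = 0.0477) were called, and CLDN1 was not (adjusted p = 0.0592). Whether replicate numbers pair the samples could not be decided. The mean correlation of deviations from group means was −0.0795 where numbers matched and 0.0387 where they differed. Deviations within a group of 3 sum to 0, which ties these means to each other, so they cannot tell pairing from its absence. Without a filter, the adjusted p was 0.0575 for CLDN1 and 0.0909 for OCLN. Why calls moved with these settings was not tested. The differences of the log2 ratios kept their sign and ranged over samples left out from −0.40 to −0.20 (TJP1 to TJP3), from 0.06 to 0.20 (CLDN1 to CLDN4) and from −0.38 to −0.20 (OCLN to MARVELD2).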
